A study of Mus musculus with 6 samples.

Results

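The promoters of the ribosomal protein genes were examined in ATAC-seq peak lists of white preadipocytes with and without the chromatin proteins HMGN1 and HMGN2. Members were the protein-coding genes of the mouse annotation (mm10, GENCODE M21) whose symbols are Rpl or Rps followed by a number, together with Rplp0, Rplp1, Rplp2 and Rpsa. The Rps6k kinases were left out. This rule gave 92 of the 21755 protein-coding genes on chromosomes 1 to 19 and X. Of these, 77 encode the canonical proteins of the cytoplasmic ribosome, 46 in the large and 31 in the small subunit, and are called core genes here. The other 15 are paralogs, genes named as pseudogenes but annotated as coding, and Rps19bp1, which encodes a binding partner of a ribosomal protein.

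The data came from 3 libraries of wild type cells (WT) and 3 libraries of double knockout cells (DKO, Hmgn1-/- and Hmgn2-/-). All 6 were made at day 0, before differentiation was induced, from cells of the inguinal white adipose tissue of C57BL/6 mice. Per the study's methods, the mice were 8 to 12 weeks old and the cells were grown in culture before use. The study states that its mice were male. The pooling of animals for a library is not given in the sources used here. The samples are labelled as separate replicates, and nothing in the labels ties a replicate to an animal, so the p-values measure the spread between these libraries, which may be technical.

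Each ribosome is built from ribosomal RNA and about equal amounts of each ribosomal protein, so the genes of these proteins are usually described as a constitutive set whose promoters are open in nearly every dividing cell. Their promoters are GC-rich and often lack a canonical TATA box. Their transcripts typically begin with a C followed by a run of C and T, the TOP motif, through which translation of these mRNAs responds to the mTOR pathway. HMGN1 and HMGN2 bind nucleosomes without preference for a DNA sequence, compete with linker histone H1, and are found at promoters and enhancers. In ATAC-seq, the transposase Tn5 cuts accessible DNA, and a peak marks a region with more cuts than its surroundings.

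Promoter sequences are shown first for the genes that lead the results. They are RefSeq sequences (GRCm38.p6) of 100 bases, 80 before the RefSeq start nearest to the ATAC summit and 20 from the start on, read 5′ to 3′ on the strand of the gene. Capitals mark the ETS motif CCGGAAG on either strand and a TOP-like start. A TOP-like start was a run of at least 5 C or T that begins with C within 5 bases of the start. The 4 genes below were among the 5 members with the highest ATAC values.
Rpl27 (chr11:101442165-101442264, plus strand): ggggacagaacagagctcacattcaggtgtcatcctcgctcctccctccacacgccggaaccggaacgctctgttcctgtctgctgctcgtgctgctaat
Rplp0 (chr5:115559387-115559486, plus strand): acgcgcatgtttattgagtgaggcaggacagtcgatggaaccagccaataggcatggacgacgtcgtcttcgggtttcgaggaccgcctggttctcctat
Rpl31 (chr1:39367771-39367870, plus strand): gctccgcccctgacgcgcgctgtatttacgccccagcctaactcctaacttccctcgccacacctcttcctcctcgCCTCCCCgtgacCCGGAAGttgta
Rpl15 (chr14:18270967-18271066, minus strand): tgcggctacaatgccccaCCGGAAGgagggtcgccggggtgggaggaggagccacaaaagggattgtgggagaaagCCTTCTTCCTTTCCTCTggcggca
Rpl31 and Rpl15 hold both features in these stretches, and by these definitions Rplp0 and Rpl27 hold neither. Whether the start nearest to the summit is the main start of transcription was not tested. Rpl12 is shown as a core gene from the bottom of the order of levels.
Rpl12 (chr2:32961632-32961731, plus strand): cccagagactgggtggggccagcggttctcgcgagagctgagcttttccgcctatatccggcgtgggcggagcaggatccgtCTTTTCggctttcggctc
The next 4 genes had the highest (Rps10 and Rps3a1) and some of the lowest (Rps18 and Rps26) test statistics in the comparison of DKO with WT.
Rps10 (chr17:27635225-27635324, minus strand): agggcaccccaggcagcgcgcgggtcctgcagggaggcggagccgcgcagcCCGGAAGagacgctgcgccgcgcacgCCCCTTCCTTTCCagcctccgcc
Rps3a1 (chr3:86142649-86142748, minus strand): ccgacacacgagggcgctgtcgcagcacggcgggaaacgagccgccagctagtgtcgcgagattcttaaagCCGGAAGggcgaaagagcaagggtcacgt
Rps18 (chr17:33955646-33955745, minus strand): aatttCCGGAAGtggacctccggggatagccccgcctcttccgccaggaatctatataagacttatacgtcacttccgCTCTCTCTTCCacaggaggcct
Rps26 (chr10:128626487-128626586, minus strand): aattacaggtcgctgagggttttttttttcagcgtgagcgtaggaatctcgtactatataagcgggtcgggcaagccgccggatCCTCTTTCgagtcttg
Rps10 has an ETS motif 29 bases before the start and a C and T run of 13 bases. Rps6, whose protein is the substrate of the S6 kinases, has a run of 10 bases.
Rps6 (chr4:86857348-86857447, minus strand): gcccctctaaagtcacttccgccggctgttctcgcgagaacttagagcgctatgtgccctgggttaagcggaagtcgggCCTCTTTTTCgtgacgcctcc

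The value of a gene in a library was the fold enrichment given by the peak caller MACS2, that is, how many times the pileup of Tn5 cuts at a summit exceeded the background around it. The highest summit within 1000 bp of a transcription start site of the gene was used. Lists held between 299433 and 299620 summits and had been limited to 300000 by the authors, so a missing summit means a value below the end of the list, not closed chromatin. Read totals were not analysed here. The commonest background level, a stand-in for depth, was between 2.41 and 2.58 cuts in 5 libraries and 2.05 in DKO replicate 3. As a check of the labels, the Hmgn2 promoter (chr4) had fold enrichments of 7.89, 7.53 and 9.45 in WT and no listed summit in the 3 DKO libraries (limma adjusted p = 0.00238). In that fit each DKO value was set to the lowest of its list. The check is therefore the missing summit, and the p rests on set values. Without WT replicate 1 or WT replicate 3 that p was 0.0605 and 0.0675. At Hmgn1 (chr16) the promoter summit was listed in all 6 libraries, with fold enrichments of 12.6, 13.9 and 20.1 in WT and 14.9, 16.3 and 14.4 in DKO. Its adjusted limma p was 0.844. Whether that promoter lies outside the deleted sequence is not given in the sources used here, so it checks nothing. Of 9 preadipocyte or fibroblast markers, 7 had a promoter summit in all 6 libraries and 2 in some. Their median change was -0.200 (log2, DKO minus WT; 6 of 9 negative, 0 with an unadjusted limma p under 0.05), and Pdgfrb was between 9.55 and 10.9 in WT and between 7.24 and 9.22 in DKO. Of 5 adipocyte markers, none had one in all 6, and Plin1, Lep and Ucp1 had none. Summits were also listed in all 6 libraries for 3 of 5 leukocyte markers (Lyz2 between 9.42 and 14.9 in WT and between 8.15 and 9.61 in DKO) and 3 of 4 endothelial markers (Tek between 15.4 and 18.2 in WT and between 13.5 and 15.3 in DKO). The leukocyte marker Cd68 went the other way, between 4.79 and 5.73 in WT and between 5.78 and 6.26 in DKO. Adgre1 was listed only in DKO replicates 1 and 2 (3.91 and 3.40), and Ptprc only in WT replicate 1 (3.50). The leukocyte markers tested had 2 negative and 2 positive changes. Of the endothelial markers, Pecam1 was between 12.2 and 17.2 in WT and between 10.3 and 11.8 in DKO, whereas Cdh5 had no listed summit in WT and was between 3.91 and 7.09 in DKO. A summit at a promoter does not show that the gene is expressed, and the part of other cell types in the results below was not tested. In such bulk libraries, fewer cells with an open promoter and less opening per cell cannot be told apart.

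All 77 core genes had a promoter summit in each of the 6 libraries. Over all protein-coding genes, 13269 of 21755 (61.0%) did. The weakest core summit in any library had a pileup of 35 cuts, and the strongest had 350, so the core promoters stood well above the lowest pileups in the lists, which were between 8 and 12. Among the other 15 members, 5 had a summit in all 6 libraries. These were Rpl22l1, Rpl36al, Rpl7l1, Rps27l and Rps19bp1. Rpl39l, a paralog of Rpl39 used mainly in the testis, was listed in 5 libraries at values between 3.78 and 5.26 and was missing in WT replicate 2. The remaining 9 had no summit in any library, namely Rpl10-ps3, Rpl10l, Rpl36-ps4, Rpl36a-ps1, Rpl3l, Rpl9-ps1, Rpl9-ps6, Rps12-ps3 and Rps27rt. Rpl3l replaces Rpl3 in heart and skeletal muscle, and Rpl10l replaces Rpl10 in male germ cells. A total of 83 members, those with a summit in at least 2 libraries, entered the tests with 14825 protein-coding genes in all. A summit can lie near the starts of 2 genes, and 15 of the 83 lay within that distance of a start of another protein-coding gene. Examples are Rps18 with Vps52, Rpl15 with Nkiras1, Rps28 with Ndufa7 and Rps10 with the readthrough gene RPS10-NUDT3. In these cases the value cannot be assigned to one of the genes.

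The levels of the core promoters spanned a narrow range. Over the 72 core genes plotted one by one, fold enrichment ran from 7.10 to 31.0 over all libraries. Over all core genes, the highest mean over 6 libraries was 3.40 times the lowest. A total of 64 of the 77 stayed above 10 in every library, and 5 stayed above 20. Rpl27, a protein of the large subunit, had the highest level, with 29.6, 25.1 and 31.0 in WT and 25.04, 25.4 and 24.999 in DKO. Second was Rplp0, the scaffold of the ribosomal P stalk that recruits elongation factors, with 25.6, 23.5 and 28.9 in WT and 20.5, 22.3 and 23.3 in DKO. In both genes, WT replicates 1 and 3 were the highest of the 6 libraries. Rpl31, near the exit of the nascent chain, measured 24.5, 20.6 and 26.1 in WT and 23.0, 22.2 and 21.7 in DKO. For Rpl15 the values were 23.4, 21.7 and 23.1 in WT and 23.4, 23.2 and 23.0 in DKO, the narrowest range of unnormalised values among these 4.

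Rpl36, Rpl8 and Rpl12 stood near the other end among the core genes. Rpl36 had 7.11, 9.71 and 7.98 in WT and 7.10, 8.08 and 7.49 in DKO. Rpl8 had 8.90, 8.997 and 9.73 in WT and 8.30, 7.74 and 8.93 in DKO. Rpl12, which forms the base of the P stalk beside Rplp0, had 10.2, 9.21 and 8.43 in WT and 8.10, 9.33 and 9.42 in DKO. Members of the same stalk sat at opposite ends of the order, and their values did not overlap in any library. Neighbours in the order were not separated: of the 76 pairs of adjacent core genes, none had 6 normalised values of one gene all above those of the other. Spearman's rho over 82 members was between 0.819 and 0.916 for libraries of one genotype and between 0.785 and 0.894 for libraries of different genotypes, as a description of genes that share their libraries. Over all protein-coding genes, whose levels span a wider range, it was higher for every pair, between 0.935 and 0.954 within and between 0.915 and 0.942 across genotypes.

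**Figure D1:**
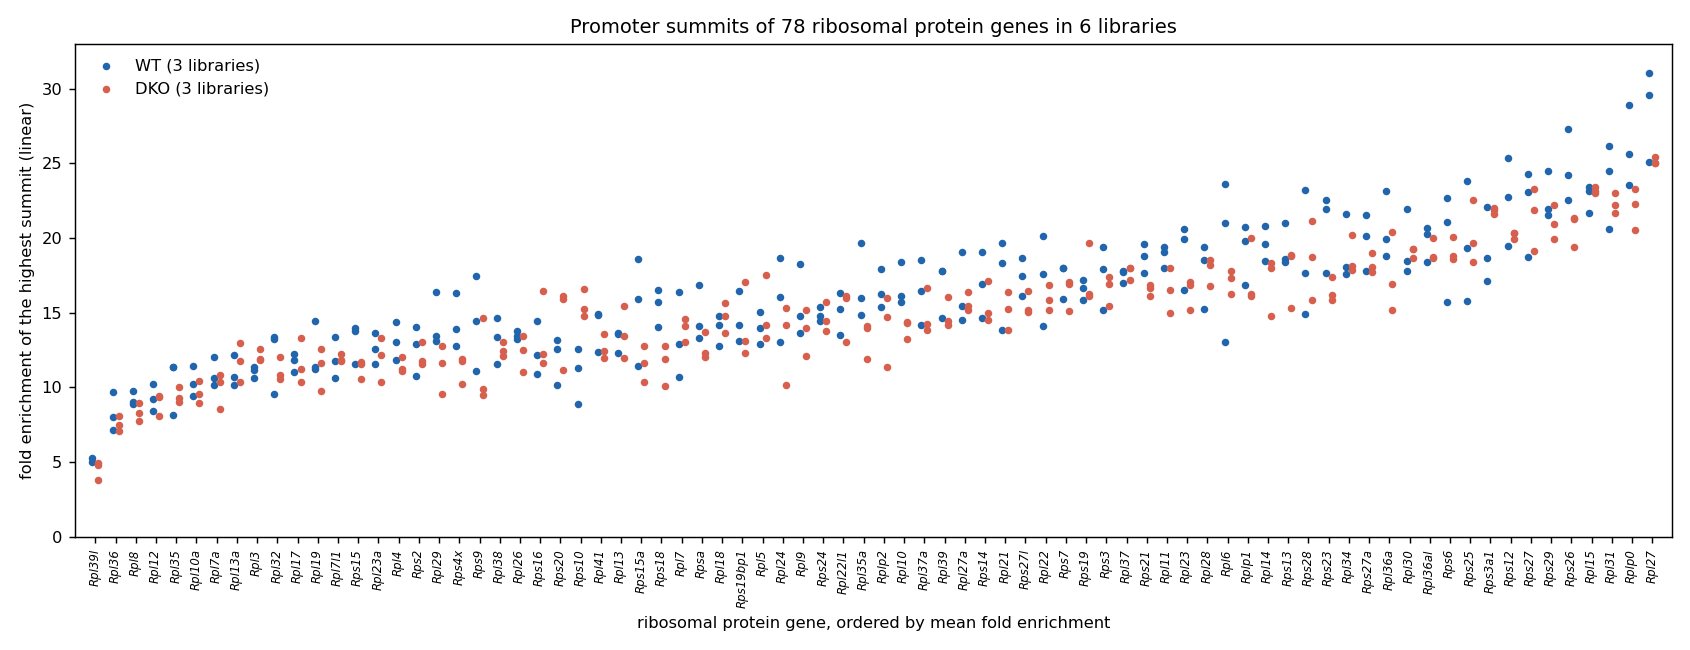
Fold enrichment of the highest promoter summit (linear axis) for 78 of the 83 ribosomal protein genes with a summit in at least 2 libraries, ordered by their mean, with each point a library (3 WT, 3 DKO). The core genes plotted lie between 7.10 and 31.0, and Rpl39l lies below them.

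Core genes of the small subunit had a median normalised level of 16.8, and those of the large subunit 14.7. The median fold enrichment of the 82 members listed in every library was 16.0, 14.4 and 17.7 in WT and 14.7, 15.7 and 14.5 in DKO. Over all protein-coding genes listed in every library it was 12.6, 11.4 and 14.4 in WT and 11.97, 12.4 and 11.5 in DKO. WT replicate 3 had the highest median in both sets and DKO replicate 3 and WT replicate 2 the lowest, and the order of the libraries was the same in the set and in the background.

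The rule asked for the rank by −log10 p, which combines height and depth. Among the protein-coding genes with a summit in a library (14200 to 14526), the median percentile of the 82 members was 73.3, 73.9 and 73.6 in WT and 71.5, 72.4 and 70.7 in DKO. The 3 DKO medians lay below the 3 WT medians, and the difference of the means was -2.06 percentile points (SD between replicates 0.303 in WT and 0.842 in DKO, n = 3 each). No p is given for a score over the members. Lower means in DKO were also found in the nucleolar and ribosome assembly genes (71.1 in WT, 68.9 in DKO) and the mitochondrial ribosomal protein genes (64.8 and 63.2). In the translation factors and TOP mRNA genes the means were 65.1 and 65.5, and over all protein-coding genes 53.4 and 53.96. The groups of medians overlapped when only the 50000 summits with the smallest p were used (DKO replicate 2 at 61.7, WT replicate 1 at 58.2) and when the peak interval had to cover a start (DKO replicate 2 at 70.6, WT replicate 1 at 70.1). Among genes listed in all 6 libraries, a base chosen after seeing the data, the medians were 71.4, 71.9 and 71.7 in WT and 69.1, 70.2 and 67.9 in DKO. In these data the lowest median fell in the shallowest library, DKO replicate 3, and the part of depth was not tested. Within the lists of all summits, the median rank of a member's summit was between 8388 and 10168, of close to 300000. A total of 60 core genes lay above the 50th percentile in every library, and 8 lay above the 90th in every library.

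**Figure D2:**
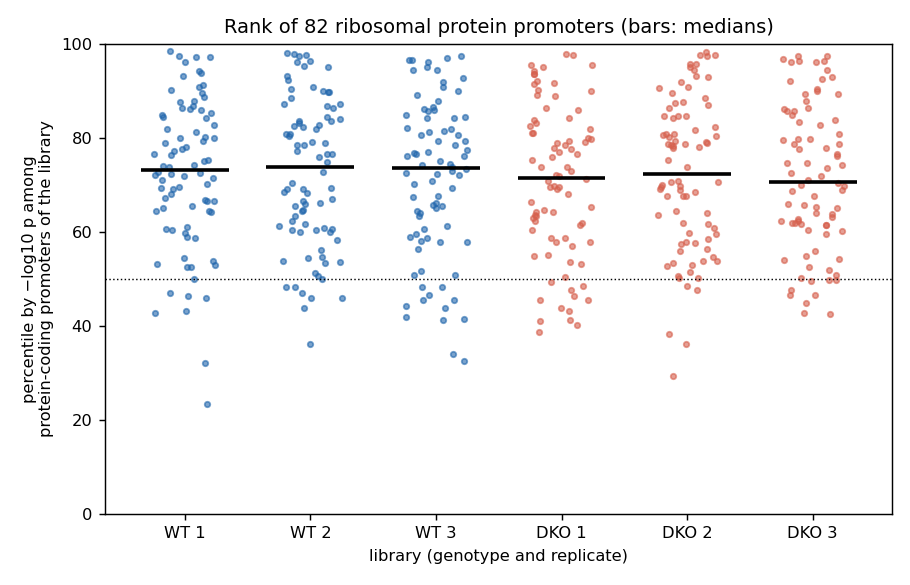
Percentile of each of 82 ribosomal protein promoters by −log10 p among the protein-coding promoters of the same library, with points as genes and bars as medians. Medians lie between 73.3 and 73.9 in WT and between 70.7 and 72.4 in DKO.

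The rule also asked for the spread of the members as a constitutive set. The SD over the members of log2 fold enrichment within a library averaged 0.40 ± 0.02 in WT and 0.39 ± 0.01 in DKO (SD over libraries, n = 3 each), so the genotypes did not differ beyond the spread between libraries. The same SD was 0.75 in WT and 0.73 in DKO over all protein-coding genes listed in every library. It was 0.49 and 0.47 over the 78 genes of mitochondrial ribosomal proteins (Mrpl and Mrps), which are encoded in the nucleus and serve a separate ribosome. Between replicates, the median SD of a member's normalised log2 value was 0.10 in WT and 0.12 in DKO, against 0.15 and 0.14 over all genes tested. It was 0.10 and 0.12 in the 22 nucleolar and ribosome assembly genes as well. With the 50000 smallest p, the SD averaged over the genotypes was 0.115 in the members and 0.124 in all genes, compared with 0.117 and 0.149 otherwise. Rpl38, Rpl31 and Rpl27 were among the steadiest core genes. Among core genes, the largest SD in WT belonged to Rpl36 (0.35) and Rps10 (0.33), and the largest in DKO to Rps20 (0.31) and Rps9 (0.30). Rpl39l, with its missing WT value set to the end of the list, had 0.95 in WT.

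**Figure D3:**
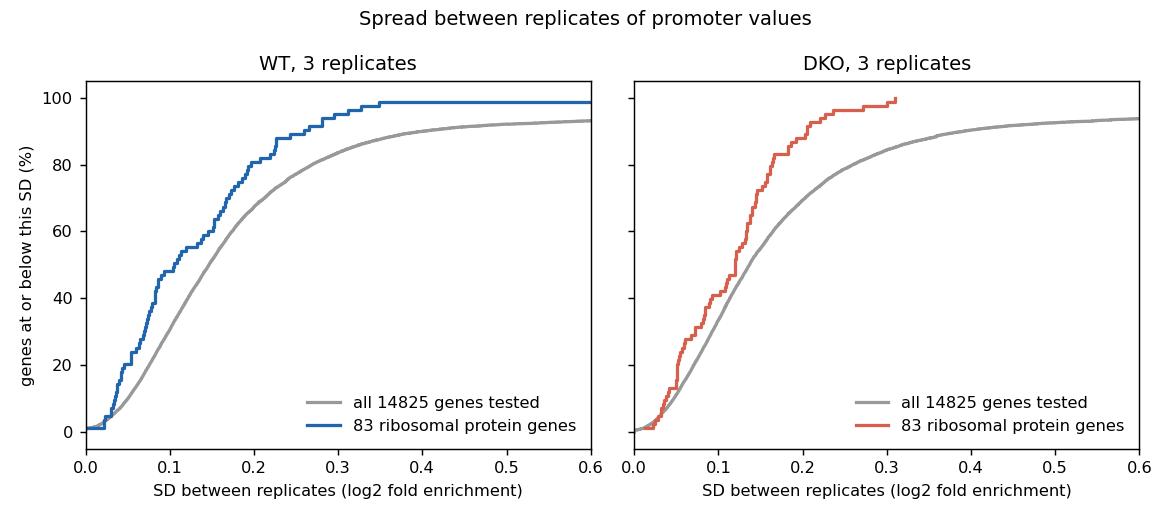
Share of genes (percent) at or below a given SD between the 3 replicates of a genotype, for normalised log2 fold enrichment, in WT (left) and DKO (right), with members in colour and all 14825 genes tested in grey. The median lies at 0.10 in WT and 0.12 in DKO for the members and at 0.15 and 0.14 for all genes.

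No ribosomal protein promoter was called changed in DKO. In the limma fit over 14825 protein-coding genes, 0 of the 83 members passed an adjusted p of 0.05 in either direction, against a background of 0.0877% of genes called (7 lower, 0.0472%, and 6 higher, 0.0405%). At an unadjusted p under 0.05 there were 5 lower and 4 higher members (10.8%), against 12.2% of all genes (6.14% lower and 6.02% higher). The values of the 2 genotypes did not overlap for 10 members lower and 4 higher in DKO (16.9%), against 16.6% of all genes, of which 8.05% were lower and 8.55% higher. Both directions together were near the background. By direction, 12.05% of members were lower and 4.82% higher without overlap. No test was made of these shares, and nothing is read from them about the set. With a library left out, groups of 3 and 2 separate more easily by construction, and between 18 and 28 members (21.7% to 33.7%) did not overlap, against 25.1% to 30.9% of all genes. The median change of the members was -0.0195 (log2, DKO minus WT), and over all genes it was 0.00379. Without WT replicate 1 it was 0.0193, and without WT replicate 3 it was -0.0357, so its sign was not stable. Over the 83 members, 45 changes were below and 38 above 0. Among those plotted they ran from -0.33 for Rps18 to 0.60 for Rps10.

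The intervals show how large a missed change could be. For 76 of the 83 members (91.6%) the 95% interval of the change lay within 1.5-fold in both directions, as it did for 70.1% of all genes. All 46 core genes of the large subunit were among them. The 7 members whose interval reached past 1.5-fold included Rpl39l, Rps9, Rps10, Rps18 and Rps20.

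**Figure D4:**
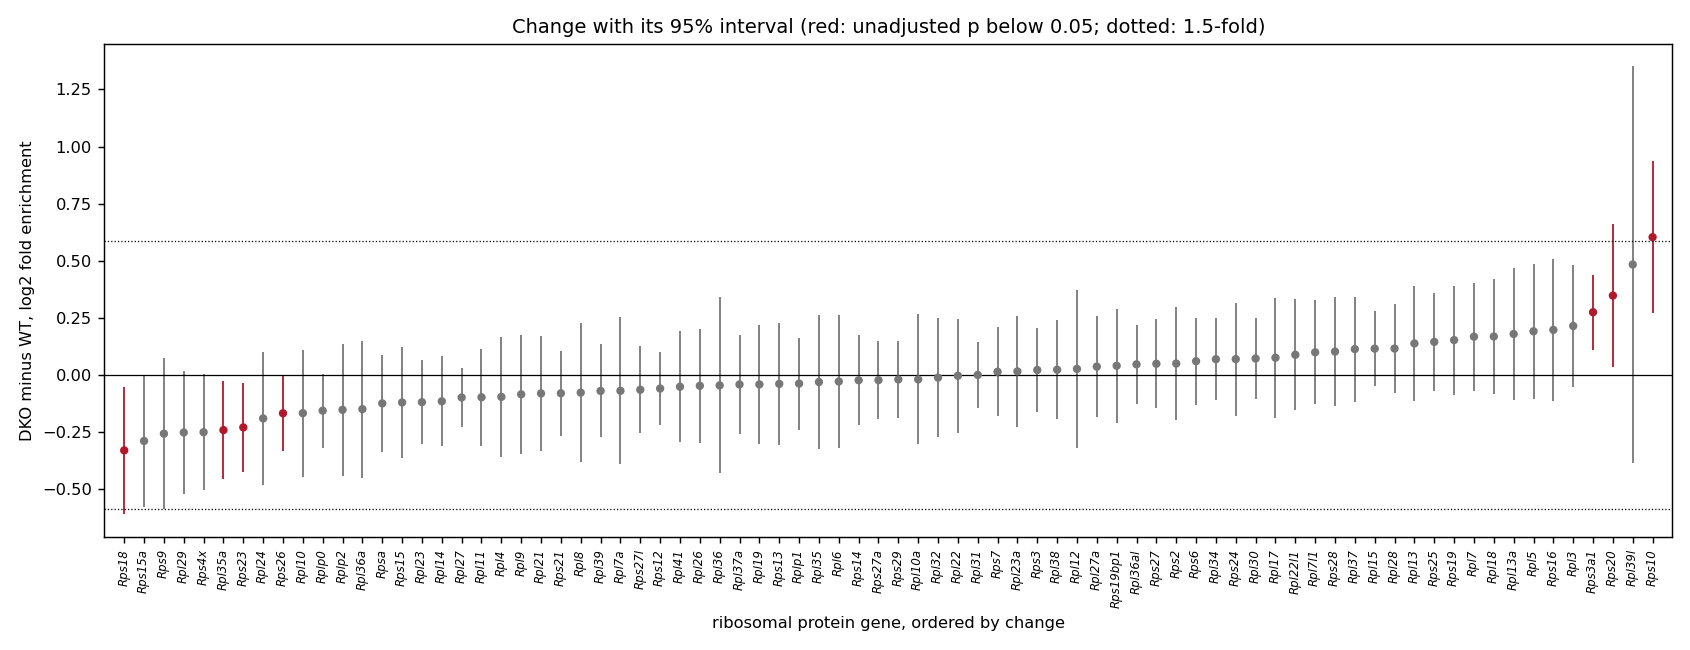
Change of 78 of the 83 members (DKO minus WT, log2 normalised fold enrichment) with its 95% interval from the limma fit, ordered by size, with red for an unadjusted p under 0.05 and dotted lines at 1.5-fold. Changes run from -0.33 for Rps18 to 0.60 for Rps10, and 0 of them passed the adjusted threshold.

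Rps10 had the largest change. This protein sits at the beak of the small subunit, is modified when ribosomes collide, and is among the genes mutated in Diamond-Blackfan anaemia. Its fold enrichment was 8.91, 12.6 and 11.3 in WT and 14.7, 15.2 and 16.6 in DKO. Every DKO library was above every WT library, and the estimate was 0.60 ± 0.15 (SE, n = 3 each; limma adjusted p = 0.186). With only the 50000 smallest p per list, which leaves out its summit in WT replicate 1 (rank 65202) and sets that value to the end of the list, the estimate was 1.60 (limma adjusted p = 0.393), and over the other alternatives on the fold enrichment scale it was between 0.47 and 0.79. The pileup behind these values was 44, 61 and 61 cuts in WT and 78, 88 and 83 in DKO. Rps10 shares its start region with RPS10-NUDT3, and its summit moved by up to 78 bp between libraries.

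Rps3a1, a protein of the small subunit, measured 18.7, 17.1 and 22.1 in WT and 21.6, 21.9 and 22.0 in DKO. Raw values overlapped at WT replicate 3, the library with the highest median, and normalised values did not (0.27 ± 0.08 SE, limma adjusted p = 0.214). Its summit stayed within 3 bp over the 6 libraries. For Rps20 the values were 12.6, 10.2 and 13.2 in WT and 11.2, 15.9 and 16.1 in DKO, with DKO replicate 1 inside the WT range. Its adjusted limma p was 0.359. Rpl3, Rpl7, Rpl15 and Rps25 were also among the 8 highest test statistics, with estimates between 0.12 and 0.21 and adjusted limma p-values between 0.514 and 0.594.

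On the lower side, Rps18, a protein of the head of the small subunit, measured 14.1, 16.5 and 15.7 in WT and 11.9, 12.8 and 10.1 in DKO. All DKO libraries were below all WT libraries (-0.33 ± 0.13 SE, limma adjusted p = 0.326). Rps23, which lies at the decoding centre, had 22.0, 17.6 and 22.6 in WT and 15.8, 16.2 and 17.4 in DKO, without overlap. Rpl35a, another Diamond-Blackfan gene, had 16.0, 14.8 and 19.7 in WT and 14.1, 14.0 and 11.9 in DKO, also without overlap. For Rps26, which contacts mRNA upstream of the start codon, the values were 24.2, 22.5 and 27.3 in WT and 21.4, 19.4 and 21.3 in DKO. None of these passed, with adjusted limma p-values of 0.326 for Rps23, 0.348 for Rpl35a and 0.408 for Rps26. Rps15a, Rps4x and Rplp0 were also among the 8 lowest test statistics, with estimates of -0.29, -0.25 and -0.16 and adjusted limma p-values between 0.414 and 0.424. With a library left out, Rps15a lay between -0.407 and -0.210 and Rplp0 between -0.217 and -0.0988. The 9 members with an unadjusted p under 0.05 were 8 genes of the small subunit (4 lower and 4 higher) and Rpl35a. The small subunit genes were 24.2% of the 33 tested members of that subunit, against 12.2% of all genes, and Rpl35a was 1 of the 50 of the large subunit. Whether the subunits differ was not tested.

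The members were then followed by role. In the P stalk, Rplp0 had the lowest estimate (-0.16 ± 0.07 SE). Rplp1, with 19.8, 16.9 and 20.7 in WT and 16.1, 19.97 and 16.3 in DKO, had an estimate of -0.04. Rplp2 and Rpl12 had -0.15 and 0.03. Rpl5 and Rpl11, which travel with 5S ribosomal RNA and bind MDM2 when ribosome assembly fails, had estimates of opposite sign, and neither passed the test. Rpl5 measured 15.02, 14.0 and 12.9 in WT and 13.3, 17.5 and 14.2 in DKO (0.19 ± 0.14 SE), and Rpl11 19.1, 18.0 and 19.4 in WT and 14.98, 18.0 and 16.5 in DKO (-0.10 ± 0.10 SE). Among the 8 MDM2-binding members, estimates lay between -0.12 for Rpl23 and 0.19 for Rpl5, and the interval of each lay within 1.5-fold. The 8 members that line or surround the exit tunnel had estimates between -0.10 for Rpl4 and 0.08 for Rpl17, and again all 8 intervals lay within 1.5-fold. Rps27a, which encodes ubiquitin fused to a ribosomal protein, measured 20.1, 17.8 and 21.5 in WT and 18.99, 18.1 and 17.7 in DKO (-0.02 ± 0.08 SE). Of the 11 Diamond-Blackfan genes on the list, 0 were called, and 2 lower (Rpl35a and Rps26) and 2 higher (Rps10 among them) had an unadjusted p under 0.05 (36.4%, against 12.2% of all genes). The list held estimates of either sign, 4 negative and 7 positive.

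Genes that work with the ribosome were read from the same fit. All 78 mitochondrial ribosomal protein genes had a summit in every library, 0 were called, and their median change was -0.0270 (log2). Of 22 translation factors and other TOP mRNA genes, 0 were called, with a median of -0.0787. For 22 nucleolar and ribosome assembly genes the count was also 0, and the median was -0.0375. At an unadjusted p under 0.05 the counts lower and higher were 5 and 3 for the mitochondrial genes, 1 and 2 for the translation list and 0 and 0 for the nucleolar list, against 12.2% of all genes.

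The summits of the members lay close to the annotated starts. The median signed distance averaged -41.8 ± 5.35 bp in WT and -38.7 ± 5.97 bp in DKO (SD over libraries, n = 3 each), with negative values upstream. Between 69.5% and 76.8% of the 82 members listed in every library had their summit within 100 bp of a start, and between 49.7% and 51.0% of all protein-coding genes did. The share was between 71.8% and 78.2% in the mitochondrial ribosomal protein genes and between 72.7% and 77.3% in the nucleolar list, as high as in the members, and between 45.5% and 68.2% in the translation list. Of the 77 core genes, 53 had the median summit upstream of the start and 24 downstream. The summit stayed in place as well. In 48 of 82 members (58.5%) the 6 summits lay within 20 bp of each other, against 35.7% of all protein-coding genes listed in every library and 52.6%, 45.5% and 36.4% of the mitochondrial, nucleolar and translation lists, and in 20 members (24.4%) they spread over more than 100 bp, against 41.2%. At Rpl15 the 6 summits lay within 4 bp, whereas at Rps20 they spread over 141 bp. Peak intervals had a median width of 647 ± 77.8 bp in WT and 611 ± 43.0 bp in DKO. This difference was smaller than the spread between WT libraries.

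**Figure D5:**
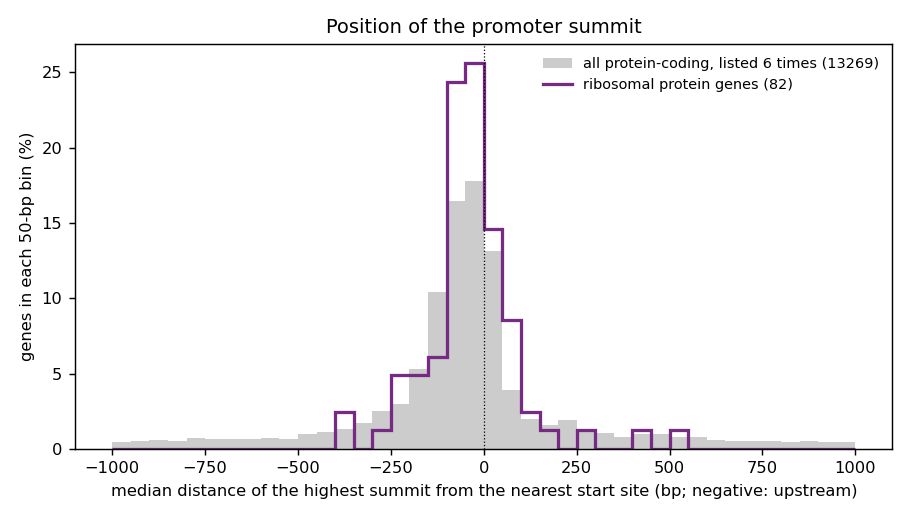
Median distance over 6 libraries from the nearest start site to the highest summit, in bins of 50 bp, as a percentage of 82 ribosomal protein genes (line) and of 13269 protein-coding genes listed in every library (grey). The largest bin of the members, 25.6%, is the one just upstream of the start, which holds 17.8% of all genes.

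Sequence features were counted in 300 bases centred on the summit (GRCm38), which could be read for all 83 members and all 14825 genes tested. The ETS motif CCGGAAG, searched on both strands like all motifs here, was in 30 members (36.1%) and in 16.1% of all genes. In mitochondrial ribosomal protein genes the share was 38.5%, so the motif was as frequent there. The YY1 motif AAGATGGCG was in 7 members (8.43%) and 2.97% of all genes, and in 12.8% of the mitochondrial list. A palindrome made of TCTCG followed by CGAGA was in 8 members (9.64%) and 1.02% of all genes. The members with it include Rps6, Rps7, Rpl4, Rpl12 and Rps28. Shares near or below those of all genes were found for the SP motif GGGCGG (61.4% against 58.9%), the NFY motif CCAAT (30.1% against 38.3%), the E-box CACGTG (12.05% against 9.54%) and the NRF1 motif, GCGCA followed by TGCGC (1.20% against 1.62%). The TATA motif TATAAA was in 11 members (13.3%) and 5.72% of all genes. The AP-1 motif TGAGTCA was in 1 member (1.20%) and 7.18% of all genes. That member was Rps20. In the RefSeq windows described next, TATAAA was in 9.52% of members and 7.44% of all genes, and the AP-1 motif in 3.17% and 4.27%. Those windows also cover fewer genes, and Rps20 is not among them, so window and gene set cannot be told apart here. GC content had a median of 59.7% in the members and 61.3% in all genes. These counts are descriptions of letters and not of bound factors.

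For TOP-like starts the RefSeq promoter table was used, which held 63 of the 83 members and 11439 of the 14825 genes tested, in windows of 300 bases. Only the start nearest to the summit was read, so a gene without a run there may have one at another start. A TOP-like start was in 27 of the 63 (42.9%) and in 19.7% of all genes. It was also in 8 of 16 translation factors and TOP mRNA genes and in 16 of 69 mitochondrial ribosomal protein genes (23.2%). The longest run, in Rpl27a, had 20 bases. In these windows the ETS motif was in 26 members (41.3%) and 16.7% of all genes. The 20 members without an entry included Rpl17, Rpl21, Rpl23a, Rpl29, Rpl3, Rpl30, Rpl32, Rpl36, Rpl7, Rpl8, Rplp1, Rps14, Rps20, Rps27a and Rps29.

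Changes in DKO were then set beside these features, with no test. Core genes with the ETS motif near the summit (28) had a median change of -0.0340 (log2) and a median normalised level of 16.4, and those without it (49) had -0.0195 and 14.5. In the RefSeq windows the order of the changes was the opposite, with -0.0139 for the 24 with the motif and -0.0591 for the 33 without. Core genes with a TOP-like start (25) had a median change of 0.00044 and those without (32) of -0.0442. A total of 30 of the 83 members contain snoRNAs in their introns, 58 in all, which guide the modification of ribosomal RNA. Hosts had a median change of 0.0188 and the 53 other members of -0.0229. The 15 members that share their region with another gene had 0.0467 and the other 68 had -0.0256.

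Copies of ribosomal protein genes outside the set were mostly unlisted. Of 283 annotated ribosomal protein pseudogenes with names of the same kind, 30 had a summit within 1000 bp of their start in any library and 13 (4.59%) in all 6. Of these 13, 1 lay beside a protein-coding start, Rpl29-ps2 beside Akr1e1, with values between 23.7 and 28.3. The others had means of up to 15.5, which was reached by Rpl21-ps7 on chromosome 17. Exons within 1000 bp of a member's start may share sequence with such copies, and how reads with several matches were treated is not given in the sources used here. Among paralogs, Rps27l, a target of p53, measured 17.4, 16.1 and 18.7 in WT and 15.1, 16.4 and 15.2 in DKO, below Rps27 in each library, which had 23.1, 18.7 and 24.3 in WT and 23.3, 19.1 and 21.9 in DKO. Rpl22l1 had 13.5, 15.2 and 16.3 in WT and 15.95, 16.1 and 13.1 in DKO. Rpl36al had 20.3, 18.4 and 20.7 in WT and 18.6, 19.98 and 18.8 in DKO. These 3 paralogs lay within the range of the core genes, and their changes were -0.06, 0.09 and 0.05 (log2).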

How the data were processed

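ATAC-seq was measured in 3 WT and 3 DKO libraries, grouped by the sample titles. Per the labels, list names and study methods, the authors trimmed paired-end reads of 50 bp (cutadapt 1.18), aligned them to mm10 (Bowtie2 2.3.4.3) and removed duplicate and mitochondrial reads. They called peaks with MACS2 in each library at a p of 0.01 per the list names (the methods give default settings), kept the 300000 summits with the smallest p and removed blacklisted regions. The lists give fold enrichment, which the authors' peak caller computed as the ratio of pileup plus 1 to local background plus 1, and the deposited p as a −log10 value. Both move with depth, and −log10 p more so. The MACS2 version is not given in the sources used here. Pileups were recovered from both columns.

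The value of a gene was the highest fold enrichment among summits within 1000 bp of a start of its GENCODE M21 basic transcripts. Protein-coding genes on chromosomes 1 to 19 and X with a summit in at least 2 libraries were kept, and an unlisted value was set to the lowest of its list. Values on the log2 scale were quantile-normalised. DKO was then set against WT by a limma fit (limma 3.58.1, R 4.3.3; lmFit, eBayes with trend, two-sided, Benjamini-Hochberg over 14825 genes, threshold 0.05). The 95% intervals used the moderated total of 12.39 degrees of freedom, residual plus prior. The fit was tested on simulated data. Descriptions used Python 3.11.15 with pandas 2.3.3 and scipy 1.17.1. RefSeq promoter sequences came from a table of GRCm38.p6.

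Named genes were the 8 lowest and 8 highest members by moderated t, the 5 highest and 5 lowest by level, every member not listed in all libraries, the targeted genes, and role lists. Single values of 5 members are not reported here, although counts and medians over the set include them. The members, gene lists and tests were chosen with earlier results of these data known. Alternatives were other scalings, values, filters, distances, annotations, variance models, a replicate block and each library left out.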

Additional observations from a re-analysis of the deposited data

How the results depend on the processing

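Of the 83 members, which include the core genes, 0 were called under each of the 20 other fits run. The smallest adjusted limma p of a member in any of them was 0.0631 (without WT replicate 2). Over all genes, 13 calls became 45 lower and 48 higher in limma without a trend, 22 and 17 with −log10 p, 19 and 13 with pileup, and 0 without WT replicate 1 or WT replicate 3. The replicate numbers did not pair the samples (correlations of deviations of 0.0396, 0.0438 and -0.00912). With the replicate block 0 members were called, and over all genes 6 lower and 1 higher. Without scaling the median of all genes was -0.0756 (log2) and that of the members -0.109, and with quantiles over all listed summits they were 0.0552 and 0.0281. The difference of these medians, -0.0233, was between -0.0338 (without WT replicate 3) and 0.0141 (without WT replicate 1) over the alternatives. Non-overlapping members numbered between 18 and 28 with a library left out, where smaller groups overlap less by construction. The median SD between replicates of the members, 0.117, was 0.135 without scaling, 0.123 with list quantiles, 0.171 with −log10 p, 0.127 with pileup and between 0.0962 and 0.112 with a library left out. The cause was not tested. The percentile difference was negative in each of the 13 alternatives run for it. They changed distance, annotation, list length, libraries or the base, and not scaling or the variance model. Leaving a library out did not change the other medians, so the sign there was fixed by their separation and adds nothing.

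Of 398 values of the 20 named members under other settings, 380 had the sign and the test outcome of the reported value, and 18 in 5 members changed sign, none past the threshold. In limma without a trend and with the replicate block the estimate stays the same by construction, so only the test outcome could differ there. Without scaling Rpl12 had -0.0526 and Rpl31 -0.0836. With −log10 p Rpl31 had -0.0437, and with pileup -0.0390. With list quantiles Rpl36 had 0.0370 and Rpl8 0.0107. With the 50000 smallest p Rpl12 had -0.0769, Rps10 1.60, Rps4x -0.79, Rpl36 -0.52 and Rpl8 -0.32, and Rpl31 had -0.00115 with intervals covering a start and -0.000121 with genes of every type. With a library left out, Rpl12 ranged from -0.136 to 0.112, Rpl31 from -0.0199 to 0.0202, Rpl36 from -0.160 to 0.1545, Rpl39l from -0.0561 to 0.834, Rpl8 from -0.155 to 0.00525 and Hmgn1 from -0.0522 to 0.201. Without scaling Hmgn1 had -0.00539. Hmgn2, whose DKO values were set to the ends of the lists, had -2.41 without WT replicate 1 and -2.34 without WT replicate 3. Each list ends at its own p, which limits weak summits, and the lowest pileup of a core gene was 35 cuts.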
